A study of Mus musculus with 6 samples.

Results

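Podosomes are actin-based membrane protrusions with which a cell contacts and degrades the surrounding ECM, and invadopodia are the like structures of tumour cells. The genes described here encode the Tks scaffolds on which these structures are built and the partners known to work with them at the same site. They were chosen by symbol, with earlier results of these data known: 10 genes, each matching 1 of the 55364 rows of the count tables. These are Sh3pxd2a (Tks5), Sh3pxd2b (Tks4), Src, Nck1, Nck2, Wasl, Wipf1, Cttn, Ptpn12 and Adam12. A filter on low counts kept 10346 genes for testing, and 9 of the 10 were among them; Nck2 was not.

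The RNA came from primary mouse LFs (lung fibroblasts) that were serum starved and exposed to 10 ng/ml TGFβ1 for 24 h, in 3 WT libraries and 3 libraries whose labels name a TKS5 knockout. Both genotypes received TGFβ, so no library shows these genes without it. The study's text calls the mutant LFs Tks5+/-, heterozygous cells from littermates of the wt mice. The mice were C57Bl6/J of 8 to 10 weeks and the cells were used at passage 2 to 3. In the mutant alleles exon 11 of Sh3pxd2a is flanked by loxP sites and removed in all tissues, and 1 of the alleles described also carries a lacZ reporter; which of them these libraries carry is not stated. The second group is called KO-labelled here. Neither the labels nor the methods tie each library to its own animal, so every p-value measures the spread between these libraries, which may be partly technical.

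In background terms, Tks5 and its paralogue Tks4 hold a phosphoinositide-binding PX domain, several SH3 domains and tyrosines that Src phosphorylates. The phosphorylated scaffold recruits the SH2/SH3 adaptors Nck1 and Nck2, which bring in N-WASP (Wasl) and its partner WIP (Wipf1), and N-WASP switches on the Arp2/3 complex to branch actin. Cortactin (Cttn) stabilises those branches and marks the podosome core, the phosphatase PTP-PEST (Ptpn12) works against the tyrosine phosphorylation, and the metalloprotease ADAM12 binds the scaffold.

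The libraries were read from the poly(A) end of the transcripts and counted over 3′ UTRs, while the sequence that the mutation removes lies far upstream. In GRCm38, Sh3pxd2a runs over chr19:47260174-47464401 on the reverse strand, and in its transcript Sh3pxd2a-201 exon 11 of 15 lies at chr19:47278313-47278430. The same exon is number 10 in Sh3pxd2a-202 and number 4 in Sh3pxd2a-203; the study names the exon without a transcript, and the numbering of Sh3pxd2a-201 is assumed. It is shown 5′ to 3′ on the coding strand, in lower case, because it is the part that the mutation removes and lies outside the counted 3′ UTR:

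Sh3pxd2a exon 11: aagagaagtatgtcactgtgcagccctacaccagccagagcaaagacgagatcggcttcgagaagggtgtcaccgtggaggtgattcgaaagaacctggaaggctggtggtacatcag

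The exon is 118 bases long and occupies bases 1069 to 1186 of a 10454-base mRNA, and 2452 mRNA bases separate it from the 3′ UTR of 6816 bases. A transcript from the mutant allele that keeps its 3′ end is therefore counted like a wt one. Whether the mutant transcript keeps that end, and whether it is as stable as the wt one, was not tested. By RT-PCR the study reported less Tks5 mRNA in its Tks5+/- LFs than in wt LFs. The Sh3pxd2a counts check neither the labels nor the amount of Tks5 protein.

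The 6 libraries held 1344507 to 2369882 counts, the WT libraries 1344507, 1647200 and 2369882 and the KO-labelled ones 1979084, 2110954 and 2329155. At that depth 1 count was worth 0.371 to 0.644 CPM, the count divided by the library size after TMM scaling. A gene was called where edgeR's quasi-likelihood test gave an adjusted p under 0.05 over all tested genes and a fold change of at least 1.2. Of all tested genes 44.9% were called, 22.8% higher and 22.1% lower in KO-labelled LFs, and the CPM of the 2 groups did not overlap for 53.8%. With library totals in place of TMM the calls split into 1362 higher and 3944 lower and the median log2 fold change of all tested genes moved from -0.05 to -0.47. WT replicate 3 stood apart in macrophage markers, with 5289 summed counts over 12 genes against 588 and 604 in the other WT libraries and 226 to 274 in the KO-labelled ones, where Ptprc, Adgre1 and Spi1 were at 0. Endothelial markers summed to 142 to 325 counts in WT and 33 to 51 in KO-labelled libraries (4 of 4 tested lower), mesothelial markers to 34 to 64 and 5 to 15 (1 of 1 lower), epithelial markers to 45 to 129 and 58 to 103 (1 of 2 lower, 1 higher) and smooth muscle and pericyte markers to 540 to 1043 and 879 to 1200 (3 of 5 lower, 1 higher). Fibroblast markers were present in every library, all 10 of them tested, at a summed level of 3878 to 5256 CPM in WT and 5609 to 8721 CPM in KO-labelled libraries; 5 of them were called higher and 1 lower. Of the Y-linked genes Ddx3y was called lower (log2 fold change -2.84), while Eif2s3y was not (-0.23), Kdm5d and Uty stayed below the filter and Xist was at 0 counts in every library. The strain-variable gene Nnt, listed under 2 Ensembl identifiers, was called lower under both (-1.56 and -1.58). The part of these differences in the results below was not tested.

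Of the 9 tested scaffold and partner genes 1 was called, Cttn, which rose, and 0 were called lower by edgeR, where 1 (Ptpn12) had an unadjusted p under 0.05 and DESeq2 and limma-voom called 0 as well. The groups did not overlap for 1 of the 9, Ptpn12. The median log2 fold change of the 9 was 0.05, against -0.05 over all tested genes, whose interquartile range was -0.67 to 0.63. The plot of CPM by library shows each value.

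**Figure D1:**
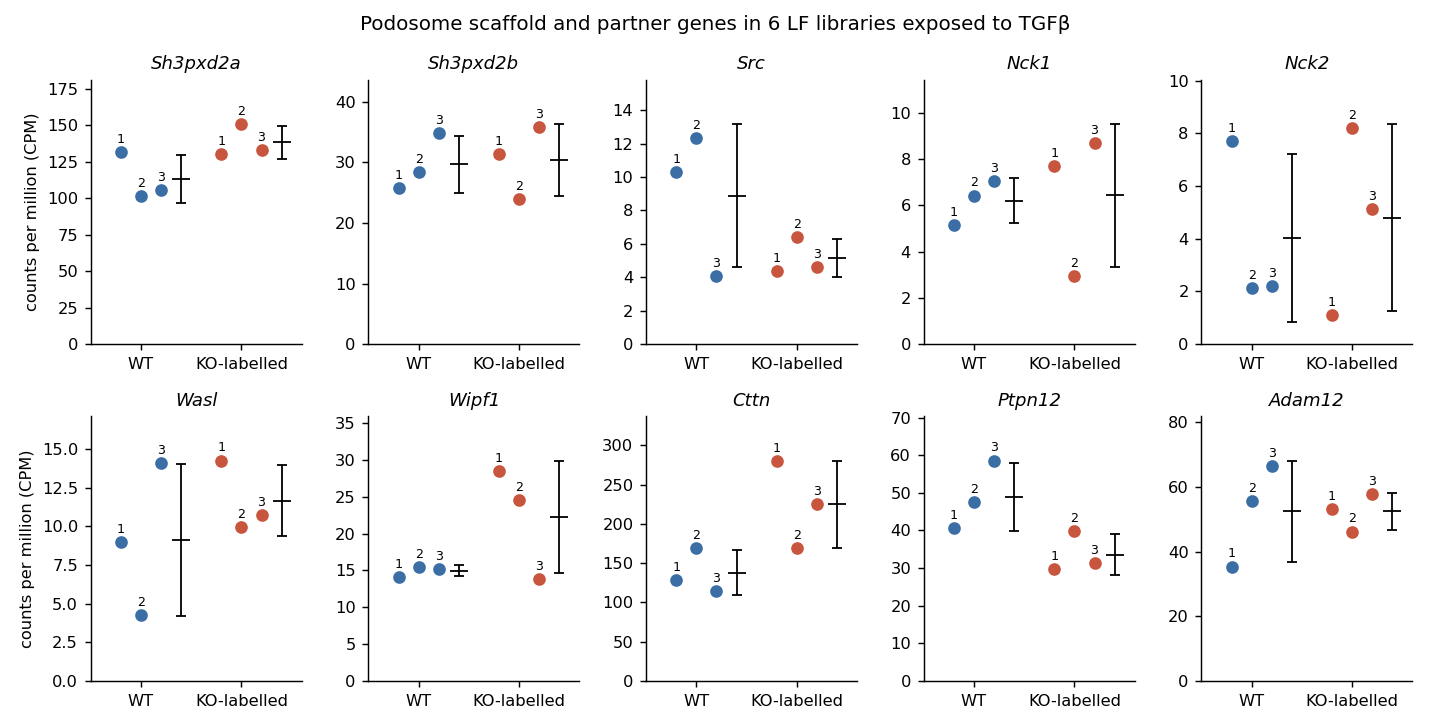
CPM of each of the 10 genes in the 3 WT (blue) and 3 KO-labelled (red) libraries; the number above a point is the replicate, and the black bar is the mean with its SD (n = 3 per group). Each panel has its own axis from 0. The groups are apart only for Ptpn12, and the lowest KO-labelled point of Cttn (169.1) lies just under the highest WT point (169.6).

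Sh3pxd2a, the gene of the scaffold itself, was counted 205, 190 and 284 times in WT replicates 1 to 3 and 238, 258 and 260 times in KO-labelled replicates 1 to 3. In CPM these were 132, 102 and 105 in WT and 131, 151 and 133 in KO-labelled LFs. No KO-labelled library was below WT replicates 2 and 3, and WT replicate 1 lay within the range of the KO-labelled ones. The mean was 113 ± 16.5 CPM in WT and 138 ± 11.1 CPM in KO-labelled LFs (SD, n = 3), and edgeR gave a log2 fold change of 0.29 (SE 0.20, 95% interval -0.13 to 0.71, adjusted p = 0.249). The lower bound of that interval, -0.13, is the largest fall it allows in these 3′ counts under TMM scaling. With library totals alone the sign turned, to -0.13 (edgeR adjusted p = 0.608), where the median of all tested genes was -0.47.

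The value of Sh3pxd2a depended most on transcript length. Differences between the groups ran with the length of the longest annotated transcript: the median log2 fold change was 0.57 over the 2585 tested genes with the shortest transcripts (up to 1917 bases) and -0.51 over the 2585 with the longest (4692 bases and over), where Sh3pxd2a, at 10454 bases, lies. When the trend of each library with length was removed, Sh3pxd2a was called higher, with a log2 fold change of 1.00 (adjusted p = 5.23e-04). It reached 1.18 when the trends with length and GC content were removed together (adjusted p = 1.12e-04). Over all 18 alternatives its adjusted p ran from 5.06e-05 to 0.608. A corrected value is relative to genes of like length, and whether the length trend is technical was not tested.

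Sh3pxd2b encodes Tks4, the other scaffold, and lies at chr11:32347820-32428173 on the forward strand. It had 40, 53 and 94 counts in WT and 57, 41 and 70 in KO-labelled libraries, or 25.7, 28.4 and 34.9 CPM against 31.3, 24.0 and 35.8 CPM. The groups covered the same range. The log2 fold change was 0.03 (SE 0.25, 95% interval -0.50 to 0.55, edgeR adjusted p = 0.943), so a difference in either direction beyond about 0.55 on the log2 scale lies outside the interval. With length and GC content removed it was called higher (0.68, adjusted p = 0.0383, range over the alternatives 0.0333 to 0.981). Within each library the counts of Sh3pxd2a divided by those of Sh3pxd2b were 5.13, 3.58 and 3.02 in WT and 4.18, 6.29 and 3.71 in KO-labelled LFs, a ratio that the scaling of a library cannot move. The mean ratio was 3.91 ± 1.09 against 4.73 ± 1.37 (exact two-sided permutation test, p = 0.5, n = 3 per group), which was within the spread between libraries. With 3 libraries a group such a test cannot give a p under 0.1. This ratio and that of Cttn to Sh3pxd2a below were chosen after the values were seen.

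Of the genes whose CPM followed Sh3pxd2a most closely across the 6 libraries, the nearest were Slc25a24, Cyfip1 and Nap1l1, with root mean square differences of 0.0449, 0.0570 and 0.0679 on a centred log2(CPM + 1) scale. Slc25a24 was at 41.8, 33.2 and 36.0 CPM in WT and 45.5, 49.7 and 43.5 CPM in KO-labelled libraries. None of the 3 was called (log2 fold changes of 0.33, 0.32 and 0.31). This is a description over 6 libraries with no test.

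Src, the tyrosine kinase that phosphorylates the scaffolds (chr2:157418444-157471862, forward strand), was thinly counted, at 16, 23 and 11 counts in WT and 8, 11 and 9 in KO-labelled libraries. In CPM these were 10.3, 12.3 and 4.08 against 4.39, 6.44 and 4.61. WT replicates 1 and 2 were above every KO-labelled library, while WT replicate 3, the library with the most macrophage-marker counts, was below all of them. The log2 fold change was -0.74 (SE 0.47, 95% interval -1.70 to 0.22, edgeR adjusted p = 0.204). Without WT replicate 3 it was -1.14 (adjusted p = 0.0541), with library totals alone -1.16 (adjusted p = 0.0430), and after removal of the length and GC trends -0.17, the adjusted p running from 0.0430 to 0.870 over the alternatives. An interval that wide does not show that the groups were alike.

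The adaptors Nck1 and Nck2 were thinly counted. Nck1 (chr9:100492293-100546134, reverse strand) had 8, 12 and 19 counts in WT and 14, 5 and 17 in KO-labelled libraries, and its log2 fold change was 0.05 (95% interval -0.88 to 0.98, edgeR adjusted p = 0.942). Nck2 (chr1:43444579-43570515, forward strand) had 12, 4 and 6 counts in WT and 2, 14 and 10 in KO-labelled libraries and was not kept by the filter. The 2 groups overlapped for both genes.

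N-WASP is the switch between the adaptors and the actin machinery. Its gene Wasl (chr6:24613805-24665009, reverse strand) was at 9.01, 4.28 and 14.1 CPM in WT and 14.3, 9.95 and 10.7 CPM in KO-labelled libraries, from 14, 8 and 38 counts against 26, 17 and 21. The groups overlapped, and the log2 fold change was 0.31 (95% interval -0.52 to 1.13, edgeR adjusted p = 0.553). It ranged from -0.02 without WT replicate 2 to 0.83 without WT replicate 3.

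Wipf1 encodes WIP, which binds and stabilises N-WASP, and lies at chr2:73429610-73529734 on the reverse strand. The WT libraries were close together, at 14.2, 15.5 and 15.2 CPM (22, 29 and 41 counts). KO-labelled replicates 1 and 2 were higher, at 28.5 and 24.6 CPM (52 and 42 counts), and replicate 3 was lower than every WT library, at 13.8 CPM (27 counts). The mean was 15.0 ± 0.711 CPM in WT and 22.3 ± 7.62 CPM in KO-labelled LFs (SD, n = 3), with an edgeR log2 fold change of 0.57 (SE 0.31, 95% interval -0.07 to 1.21, adjusted p = 0.140). Wipf1 was called higher without KO-labelled replicate 3 (0.86, adjusted p = 0.0337) and with length removed (0.87, adjusted p = 0.0276), and its adjusted p ran from 0.0276 to 0.706 over the alternatives.

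Cttn, the gene of cortactin (chr7:144435733-144471009, reverse strand), was the only one of the 9 called. It was counted 200, 317 and 309 times in WT and 511, 289 and 440 times in KO-labelled libraries, or 129, 170 and 115 CPM against 280, 169 and 225 CPM. KO-labelled replicates 1 and 3 were above every WT library, and replicate 2 was level with WT replicate 2. The mean rose from 138 ± 28.6 CPM to 225 ± 55.7 CPM (SD, n = 3), a log2 fold change of 0.71 (SE 0.22, 95% interval 0.25 to 1.17, edgeR adjusted p = 0.0127).

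The call of Cttn held in 15 of 18 alternatives, with an adjusted p of 7.18e-04 to 0.284. It was lost without KO-labelled replicate 1 (0.57, adjusted p = 0.0510), without WT replicate 3 (0.59, adjusted p = 0.0601) and with library totals alone (0.31, adjusted p = 0.284). The exact two-sided permutation test of the CPM gave p = 0.2. The counts of Cttn divided by those of Sh3pxd2a in the same library were 0.976, 1.67 and 1.09 in WT and 2.15, 1.12 and 1.69 in KO-labelled LFs (exact two-sided permutation test, p = 0.2, n = 3 per group). The scaling of a library cannot move this ratio, but the length trend can. With length removed the log2 fold change was 0.79 for Cttn and 1.00 for Sh3pxd2a, against 0.71 and 0.29 without that correction.

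**Figure D2:**
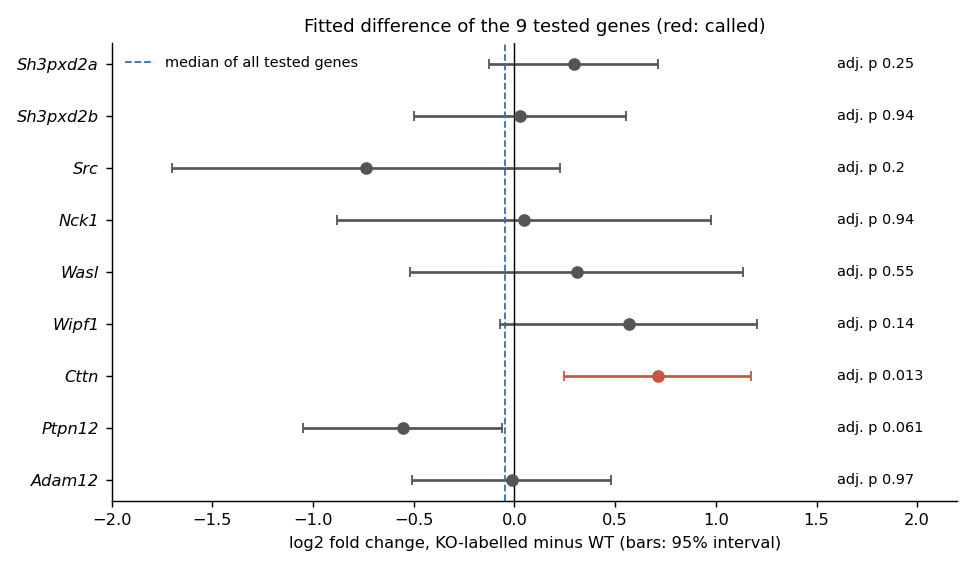
Log2 fold change (KO-labelled minus WT) of the 9 tested genes with its 95% interval from edgeR; the dashed line is the median of all tested genes (-0.05), and the adjusted p stands at the right. Cttn (red, 0.71) is the only gene called, and the interval of Ptpn12 (-1.05 to -0.06) also leaves out 0 but its adjusted p is 0.0612.

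Ptpn12 encodes PTP-PEST, a phosphatase of adhesion and podosome proteins such as p130Cas (chr5:20986645-21055911, reverse strand). It was at 40.5, 47.6 and 58.6 CPM in WT, from 63, 89 and 158 counts, and at 29.6, 39.8 and 31.2 CPM in KO-labelled libraries, from 54, 68 and 61 counts. Every KO-labelled library was below every WT library, by a margin of under 1 CPM between WT replicate 1 and KO-labelled replicate 2. The mean was 48.9 ± 9.09 CPM in WT and 33.5 ± 5.47 CPM in KO-labelled LFs (SD, n = 3), and the exact permutation test, two-sided, gave 0.1, its smallest possible p. The log2 fold change of -0.56 (SE 0.24, 95% interval -1.05 to -0.06) did not pass in edgeR, with an adjusted p of 0.0612.

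Ptpn12 sat at the threshold and was called lower in 6 of 18 alternatives. These were upper-quartile scaling (-0.59, adjusted p = 0.0475), library totals alone (-0.98, adjusted p = 0.00198), at least 10 counts in every library (-0.61, adjusted p = 0.0383), the removal of length and GC content without and with a replicate block (-0.72 and -0.71, adjusted p = 0.0174 and 0.0173) and leaving out WT replicate 1 (-0.67, adjusted p = 0.0449). The highest adjusted p was 0.248, without WT replicate 3.

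Adam12, the metalloprotease that binds the scaffolds (chr7:133883199-134232146, reverse strand), was at 35.4, 55.7 and 66.4 CPM in WT and 53.2, 46.2 and 57.8 CPM in KO-labelled libraries, from 55, 104 and 179 counts against 97, 79 and 113. The KO-labelled libraries lay inside the WT range. The means were 52.5 ± 15.7 CPM and 52.4 ± 5.84 CPM (SD, n = 3), and the log2 fold change was -0.01 (SE 0.24, 95% interval -0.51 to 0.48, edgeR adjusted p = 0.966). With length and GC content removed the value was 0.56 (adjusted p = 0.0674), and it was called only when a replicate block was added (0.61, adjusted p = 0.0297), the adjusted p reaching 0.969 among the alternatives.

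A feature that the choice by symbol did not use was length. The longest transcripts of the 10 genes had a median of 4414 bases, against 3204 over the tested genes. Each of the 9 tested genes was longer than that, and Sh3pxd2a, Sh3pxd2b, Wipf1 and Adam12 were among the 2585 longest. Removing length alone gave 3 calls (Sh3pxd2a, Wipf1 and Cttn, all higher), and removing length and GC content gave 5 (these 3 and Sh3pxd2b higher, Ptpn12 lower). Library totals alone gave 0 higher and 2 lower, Src and Ptpn12. The direction of the calls thus differed between these settings, and the plot of each gene under each processing shows which gene moved with which.

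**Figure D3:**
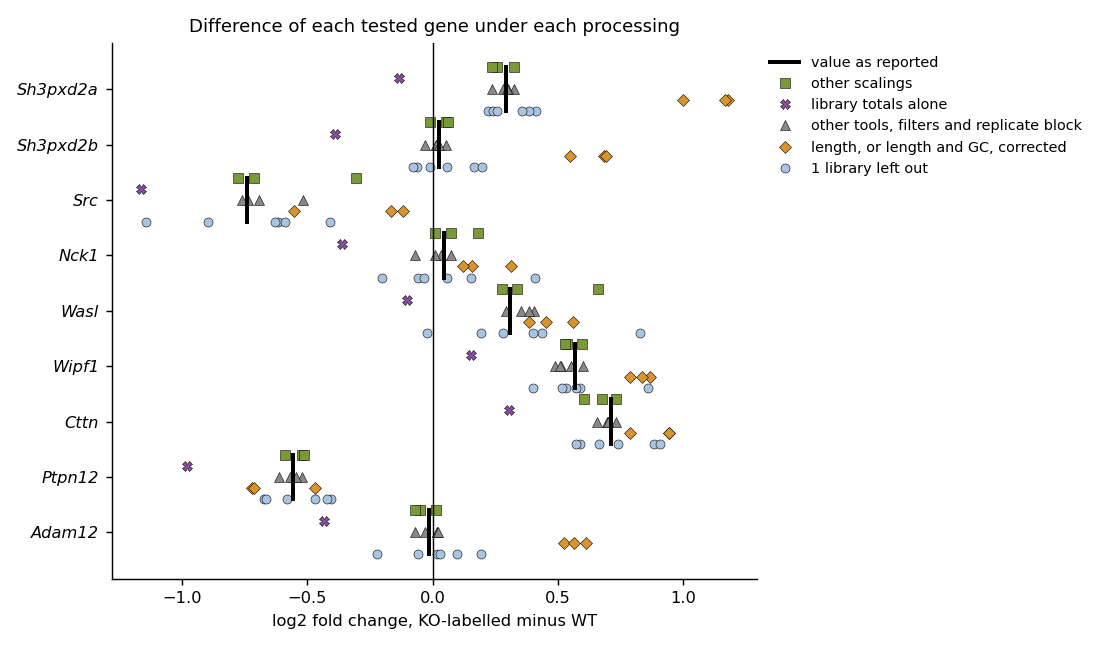
Log2 fold change (KO-labelled minus WT) of each of the 9 tested genes as reported above (black bar) and in up to 18 alternatives (coloured symbols). Library totals alone (crosses) lie furthest to the left for each of the 9 genes, and the length corrections (diamonds) move Sh3pxd2a from 0.29 to 1.00 and above, while Ptpn12 stays below 0 and Cttn and Wipf1 above 0 throughout.

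Around these genes, 7 lists of 87 podosome-related genes, also chosen with earlier results of these data known, gave 72 tested genes. Of these 7 were called higher and 22 lower. Over all tested genes 22.8% were called higher and 22.1% lower. With length removed the lists had 10 higher and 16 lower calls, and with length and GC content removed 10 and 12. Genes called higher without these corrections were found in 2 lists. In the other 5 lists edgeR called 0 higher, with 0 at an unadjusted p under 0.05, and so did DESeq2 and limma-voom. With length removed, alone or together with GC content, edgeR called 1 gene higher among the Src family and its regulators. It also called 1 higher among the Ptpn12 partners and adhesion ring.

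The actin machinery around N-WASP, with upstream genes such as Cdc42 included, held 6 of the 7 higher calls, among 15 tested of 19 genes. The share called higher over all tested genes was 22.8%. The list had a median log2 fold change of 0.35, and 0 were called lower by edgeR, DESeq2 and limma-voom (2 at an unadjusted p under 0.05 in edgeR). Arpc5, a subunit of the Arp2/3 complex, rose from 97.0 ± 1.36 to 229 ± 28.6 CPM (SD, n = 3; log2 fold change 1.24, edgeR adjusted p = 3.60e-05). Cdc42, the GTPase that opens N-WASP, rose from 331 ± 4.73 to 724 ± 134 CPM (1.13, edgeR adjusted p = 1.30e-04, n = 3). Actr3, the Arp3 subunit, rose from 231 ± 26.0 to 499 ± 71.9 CPM (1.11, edgeR adjusted p = 1.43e-04, n = 3). These 3 were called higher in all 18 alternatives. Arpc1a, Arpc5l and Cfl1 were the other 3. Library totals alone gave 3 higher and 5 lower with a list median of -0.06, where the median of all tested genes was itself -0.47. The authors' normalized values gave 4 and 4, with a list median of 0.08 against -0.05 over all tested genes. The list median was 0.10 with length removed and 0.02 with GC content removed too, where Arpc5, Cdc42 and Actr3 were at 0.69, 0.55 and 0.72. The tested genes of the list had a median length of 2565 bases, against 3204 over all tested genes. Was, the haematopoietic relative of Wasl, had 1, 1 and 4 counts in WT and 0, 1 and 0 in KO-labelled libraries.

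Among the kinases of the Src family and their regulators 3 of 7 tested genes were called lower, against 22.1% of all tested genes. The list had a median of -0.61. Ptpn1, a phosphatase that removes the inhibitory phosphate of Src, fell from 68.0 ± 8.78 to 33.8 ± 1.21 CPM (log2 fold change -1.01, edgeR adjusted p = 7.38e-04, n = 3). Csk, the kinase that adds that phosphate, also fell, from 38.1 ± 0.748 to 18.1 ± 3.86 CPM (-1.08, edgeR adjusted p = 0.00182, n = 3). Ptpra, another activating phosphatase, fell by 0.61 on the log2 scale (edgeR adjusted p = 0.0390) but was called in only 9 of 18 alternatives. It was not called by DESeq2 (adjusted p = 0.0825), with length removed (-0.24, adjusted p = 0.433) or without WT replicates 2 or 3 or KO-labelled replicates 1 or 2 (adjusted p = 0.145, 0.105, 0.0731 and 0.177), its adjusted p reaching 0.456. Ptpn1 and Csk, which act on Src in opposite senses, were both lower. Lyn had a log2 fold change of -0.54 (edgeR adjusted p = 0.219). None of the 3 lower calls remained with length and GC content removed, where Ptpn1, Csk and Ptpra were at -0.53, -0.63 and -0.25. In that setting 1 gene of the list was called higher.

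Of the partners of Ptpn12 and the adhesion ring, the integrin-linked collar around the podosome core, 7 of 14 tested genes were lower. The share over all tested genes was 22.1%, and the list had a median of -0.67. Tln1, the integrin activator talin, fell from 178 ± 42.7 to 71.1 ± 10.0 CPM (log2 fold change -1.33, edgeR adjusted p = 5.46e-05, n = 3). Ptk2b, the focal adhesion kinase relative Pyk2, fell from 75.7 ± 1.75 to 28.3 ± 10.9 CPM (-1.41, edgeR adjusted p = 1.17e-04, n = 3). Pstpip1, an adaptor that binds PTP-PEST, fell from 16, 16 and 26 counts to 2, 4 and 4 (-2.34, edgeR adjusted p = 5.91e-04). Vcl, Zyx, Abl2 and Arhgap35 were the others. With length removed the list had 1 higher and 4 lower calls, and with GC content removed too 1 and 3. Tln1 was among the calls lost in the second case, at -0.53 (adjusted p = 0.0575).

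Of the proteases at podosomes 2 of 8 tested genes were called lower, against 22.1% of all tested genes, and the median was -0.32. Adam15, a relative of Adam12 with a cytoplasmic tail that binds SH3 domains, was at 151 ± 5.10 CPM in WT and 39.1 ± 2.61 CPM in KO-labelled LFs (log2 fold change -1.95, edgeR adjusted p = 2.35e-07, n = 3). Mmp2, a gelatinase, was at 167 ± 11.4 CPM in WT and 50.0 ± 19.1 CPM in KO-labelled LFs (-1.73, edgeR adjusted p = 8.84e-06, n = 3). Both were called lower in all 18 alternatives. Adam10 (-0.53, edgeR adjusted p = 0.0753) and Mmp14, the membrane-bound activator of Mmp2 (-0.42, edgeR adjusted p = 0.184), did not pass. Adam19, named like Adam15 as a known binder of the scaffolds or their partners, did not pass either (0.15, edgeR adjusted p = 0.726). Mmp9 had 4, 10 and 31 counts in WT and 1, 3 and 2 in KO-labelled libraries and was not tested. Adam12 itself stood at -0.01, and the difference between Adam12 and Adam15 was not tested.

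Of the enzymes that make or remove the phosphoinositides which PX domains bind, 2 of 7 tested genes were lower, against 22.1% of all tested genes. Their median was -0.54. Pik3r1, the regulatory subunit of PI 3-kinase, fell from 23.0 ± 1.55 to 8.23 ± 4.77 CPM (log2 fold change -1.48, edgeR adjusted p = 0.00170, n = 3), and it was called in all 18 alternatives. Synj2, a phosphoinositide phosphatase, fell by 0.84 on the log2 scale (edgeR adjusted p = 0.0149) but was called in only 12 of 18 alternatives. It was not called without WT replicate 3, KO-labelled replicate 2 or KO-labelled replicate 3 (adjusted p = 0.0656, 0.0817 and 0.0789) or with length removed (-0.45, adjusted p = 0.181), the adjusted p reaching 0.252. Inppl1, the phosphatase SHIP2, had -0.54 (adjusted p = 0.0598). After removal of the length and GC trends the median of the list was 0.03. The Tks scaffolds are relatives of the organiser subunits of NADPH oxidases, which make reactive oxygen at podosomes. These oxidase genes had 3 of 5 tested genes lower, against 22.1% of all tested genes, and a median of -0.65. Nox4 fell from 54.3 ± 3.50 to 17.5 ± 3.86 CPM (-1.62, edgeR adjusted p = 1.96e-05, n = 3) and was called in all 18 alternatives. Cyba, the shared p22phox subunit (-0.65, edgeR adjusted p = 0.0241), lost its call when WT replicate 3 or KO-labelled replicate 2 was left out (adjusted p = 0.164 and 0.154). Nox1 (-0.77, edgeR adjusted p = 0.0382) lost its call when WT replicate 1 or 3 or KO-labelled replicate 1 or 3 was left out (adjusted p = 0.0598, 0.236, 0.200 and 0.0597), and in DESeq2 (0.0920).

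The remaining actin regulators of podosomes had 1 of 16 tested genes higher, Gsn (gelsolin, 0.66, edgeR adjusted p = 0.00925), and 5 lower, with a median of -0.30. The shares over all tested genes were 22.8% higher and 22.1% lower. With length removed the list had 2 higher and 4 lower calls and a median of -0.19. With GC content removed too it had 3 higher and 3 lower and a median of 0.09. Fmnl2, a formin, fell from 14.0 ± 1.97 to 4.90 ± 1.56 CPM (log2 fold change -1.50, edgeR adjusted p = 0.00348, n = 3). The lowest values belonged to genes known from leukocytes. Hcls1, the haematopoietic relative of cortactin, had 8, 10 and 80 counts in WT and 1, 0 and 0 in KO-labelled libraries, and Lcp1 (L-plastin) had 20, 31 and 166 against 3, 5 and 4. Both were called lower in every alternative that tested them, also without WT replicate 3. They moved with the macrophage markers, of which 5 of 9 tested were called lower and 0 higher (0 at an unadjusted p under 0.05) and whose most counted genes, Lyz2 and Laptm5, had 3502 and 663 counts in WT replicate 3. In the other WT libraries Lyz2 had 298 and 337 counts and Laptm5 108 and 66, and in the KO-labelled ones Lyz2 had 139, 157 and 207 and Laptm5 11, 6 and 5. Laptm5 was called lower (edgeR adjusted p = 0.0266) and Lyz2 was not (adjusted p = 0.110). Their part in these calls was not tested, and in bulk RNA fewer cells of a type and less RNA per cell cannot be told apart. Cttn was called higher and Hcls1, its leukocyte relative, lower.

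**Figure D4:**
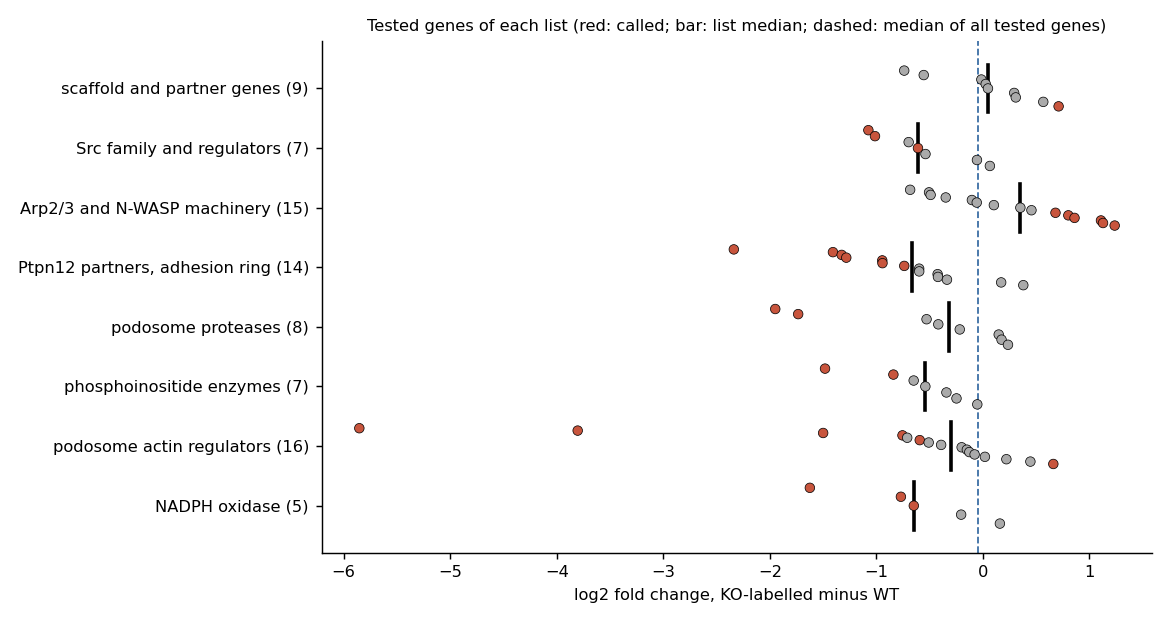
Log2 fold change (KO-labelled minus WT) of the tested genes of the scaffold and partner set (top) and of the 7 lists around it, with the number tested in brackets; red points were called, the black bar is the list median and the dashed line the median of all tested genes (-0.05). The Arp2/3 and N-WASP list has its called genes at the right (0.68 to 1.24). With library totals alone its median is -0.06, where that of all tested genes is -0.47. The point furthest left is Hcls1, with 1 count in all KO-labelled libraries together.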

How the data were processed

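RNA of 3 WT and 3 KO-labelled LF cultures was sequenced with an oligo-dT primed 3′ kit (QuantSeq). Per the methods, the authors used Trim Galore for trimming and HISAT2, followed by Bowtie2 for the unmapped reads, for alignment to GRCm38. They deposited raw counts per gene, summed over 3′ UTR regions with metaseqR2; whether strand was used is not given in the sources used here. No other gene's annotation overlapped the 3′ UTRs of the 10 genes. The authors' normalized values (EDASeq, rounded, the same sorted values in every library) were used as a score in 1 alternative.

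Symbols, transcripts and coordinates came from GENCODE vM21 (GRCm38), which named 55104 of 55364 identifiers. The raw counts were fitted with edgeR 4.0.16 under R 4.3.3 (genes kept by filterByExpr, sizes scaled by TMM, robust quasi-likelihood F test, Benjamini-Hochberg adjustment over all tested genes). CPM used the TMM-scaled library sizes. SE and intervals came from the same fit. Alternatives used RLE, upper-quartile and total scaling, limma 3.58.1 (voom, or log2 of the normalized values + 1), DESeq2 1.42.0, other filters, a replicate block, loess trends (span 0.5) of each library with length and GC content of the longest transcript removed, and each library left out. Scripts were tested on simulated data.

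The genes and lists were chosen with earlier results of these data known. Named from each list were the 3 tested genes with the smallest adjusted p and those known to bind the scaffolds or their partners; other called genes were named after their values were seen. The protein sequences are not analysed here.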

Additional observations from a re-analysis of the deposited data

How the results depend on the processing

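Over 12 choices of scaling, tool, filter and correction, and with each library left out, the count of called genes stayed within 1.5 times of 4642 (3853 to 4595 with a library left out). No shared deviation by replicate number was seen: deviations of same-numbered libraries correlated at -0.00101, -0.0637 and 0.082. Such values cannot tell whether same-numbered libraries were prepared together. The replicate block gave 4668 called genes, 1 higher and 0 lower among the scaffold and partner genes. The counts of these genes called higher were 0 with library totals alone, 3 with length, 4 with length and GC content and 5 with the block added, and 0 to 2 with a library left out. Called lower were 1 with upper-quartile scaling, 2 with library totals, 1 at a minimum of 10 counts per library, 1 with length and GC content and 1 with the block added (0 to 1 with a library left out). In the lists around them, higher calls were 3 with library totals and 4 with the authors' normalized values (6 to 8 with a library left out). They were 10 with length, 10 with length and GC content and 10 with the block added. Lower calls were 42 with library totals, 16 with length, 12 with length and GC content and 12 with the block added (18 to 23).

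By gene, library totals alone gave -0.13 for Sh3pxd2a, -0.39 for Sh3pxd2b, 0.31 for Cttn, -1.16 for Src, -0.36 for Nck1, -0.10 for Wasl, -0.98 for Ptpn12 and, reversed outside the set, -0.26 for Adam19. Length and GC content gave 1.18 for Sh3pxd2a, 0.68 for Sh3pxd2b, 0.84 for Wipf1, -0.72 for Ptpn12, 0.56 for Adam12 and 0.035 for Inppl1, and with the replicate block 1.17, 0.69, 0.79, -0.71, 0.61 and 0.078. Length alone gave 1.00 for Sh3pxd2a, 0.87 for Wipf1 and 0.52 for Adam12. Upper-quartile scaling gave -0.0097 for Sh3pxd2b and -0.59 for Ptpn12, and the minimum of 10 counts -0.029 and -0.61. Adam12, near 0, changed sign with RLE (0.015), DESeq2 (0.017), voom (0.018) and the replicate block (0.021), and Nck1 with voom (-0.071). With a library left out the ranges were 0.22 to 0.41 for Sh3pxd2a, -0.077 to 0.20 for Sh3pxd2b, 0.57 to 0.91 for Cttn, -1.14 to -0.41 for Src, -0.20 to 0.41 for Nck1, -0.022 to 0.83 for Wasl, 0.40 to 0.86 for Wipf1, -0.67 to -0.40 for Ptpn12, -0.22 to 0.19 for Adam12 and -0.10 to 0.41 for Adam19. The cause was not tested. Src, Nck1, Nck2 and Wasl had 38 counts or fewer a library; intervals cover the spread between 3 libraries a group.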
